A study of Homo sapiens with 16 samples.

Results

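Untreated U2OS cells in which PIP4K2A, PIP4K2B or both had been knocked down were set against untreated cells with the empty vector, to find the genes that moved the same way in all 3 knockdown lines. U2OS is a human osteosarcoma line, which the labels call a sarcoma line. The members are the 6 untreated knockdown libraries of the 16 libraries in all, 2 for each line, and they were chosen by their labels. The lines carry a stable hairpin against PIP4K2A, against PIP4K2B, or hairpins against both. The control cells carry the plko.puro vector and are called wildtype in the study's design text, and the labels name no line with a non-targeting hairpin. All cells were grown with puromycin. A second set of the same 4 genotypes was collected 6 h after UV-C irradiation at 30 J/m2. Each line is a stable line, and the labels do not say whether it is a clone, nor whether its 2 libraries came from separate cultures. The p-values therefore measure the spread between these libraries, which may be technical.

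PIP4K2A, PIP4K2B and PIP4K2C encode the phosphatidylinositol 5-phosphate 4-kinases, lipid kinases that turn PI5P into PI(4,5)P2. PI5P is a rare lipid that rises in stressed cells, and the kinases are known to act on autophagy, lysosomal cholesterol, insulin and mTORC1 signalling and survival of p53-deficient cells. PIP4K2A has the highest catalytic activity of the family, and PIP4K2B is found partly in the nucleus.

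One of the 2 untreated vector libraries was set aside. Replicate 1 held 1.28 M counts, with 14.6% of them from mitochondrial genes, and correlated across 19034 genes with the other untreated libraries at r = 0.538 to 0.567. The other 7 untreated libraries held 28.0 to 33.0 M counts, 2.30 to 3.43% of them mitochondrial, and correlated with each other at 0.984 to 0.996. Vector replicate 2 is thus the 1 untreated control library, and all 3 untreated lines were compared with it. What is particular to that library would appear in all 3 lines alike and cannot be told apart from a shared effect of the knockdowns in untreated cells. The UV-treated knockdowns have their own 2 vector libraries, so they give a comparison of the same lines that shares no library with the untreated one. Both use vector cells of the same genotype, so what is particular to the vector cells would appear in both. The 2 comparisons also share 1 fit and its estimate of the spread of each gene, so their calls are not independent. For the level of a gene alone, 6 libraries against 1 cannot reach an exact permutation p below 0.143. The adjusted p-values below come from edgeR's quasi-likelihood test with Benjamini-Hochberg adjustment, fitted to 15 libraries, which lends the spread seen between the replicates of the other groups to the lone vector library.

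The hairpins lowered their targets. PIP4K2A was at 62.9 CPM (the count of a gene scaled by the total count of its library) in the vector library, at 18.2 and 15.5 in the PIP4K2A line and at 22.9 and 22.9 in the double line, whereas the PIP4K2B line had 56.3 and 60.6. PIP4K2B was at 107 CPM in the vector library, at 26.6 and 23.7 in the PIP4K2B line and at 17.3 and 19.3 in the double line, and at 96.9 and 98.3 in the PIP4K2A line. Each targeted gene was therefore low in 4 of the 6 knockdown libraries, and neither is a gene moved in all 3 lines. PIP4K2C, the member with little catalytic activity that no hairpin targeted, was at 56.9 CPM in the vector library, 82.8 and 77.2 in the PIP4K2A line, 65.8 and 69.6 in the PIP4K2B line, and 101 and 108 in the double line. All 6 knockdown libraries lay above the vector library, with the double line highest. PIP4K2C did not pass the test in each of the 3 lines by itself, as 0 of the 8 PIP4K and PIP5K genes did. The mean of the 3 lines was higher by 0.53 on the log2 scale (SE 0.11, adjusted p = 0.0099), and by 0.62 after UV (adjusted p = 0.00025), where the 2 vector libraries had 56.5 and 56.9 CPM.

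Of 22597 genes tested, 235 were called higher and 247 lower in all 3 untreated lines at a Benjamini-Hochberg adjusted p under 0.05, which is 1.04% and 1.09% of the genes. Each line alone had more calls in either direction, 7.84% of genes for the PIP4K2A line, 10.2% for the PIP4K2B line and 6.2% for the double line. Another 17 genes were called in all 3 lines in unlike directions. The mean of the 3 lines against the vector library was called higher for 3.84% and lower for 4.13% of genes, and all 482 shared genes were among these calls. In each of the 482, all 6 knockdown libraries lay on the same side of the vector library, which the rule nearly fixes. The median log2 change was 0.89 for the genes called higher and -0.86 for those called lower, and 101 and 94 of them changed by at least 1. Protein-coding genes made up 211 of the 235 and 221 of the 247.

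The balance between rises and falls rests on the scaling. With libraries scaled to the counts of cytosolic ribosomal protein genes, the median of all genes moved from 0.00 to 0.24 and the shared calls became 517 higher and 59 lower, of which 280 were among the 482. The total of 482 was 283, 319, 215 and 264 without replicate 1 or 2 of the untreated PIP4K2B line and replicate 1 or 2 of the untreated double line, 319 without either UV-treated double library, and 1134 and 1149 without replicate 1 or 2 of the UV-treated PIP4K2A line, whose libraries enter the estimate of the spread. With all 16 libraries in the fit, 14 genes were called, all of them among the 482.

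Among shared genes with a mean of at least 5 CPM over the 7 untreated libraries, the 3 largest rises were in genes under 0.5 CPM in the vector library. H4C4, a gene of the replication-dependent histone cluster that encodes histone H4 (chromosome 6, 26188765 to 26189076, minus strand, GRCh38), was at 0.419 CPM in the vector library. It was at 16.4 and 20.9 CPM in the PIP4K2A line, 38.4 and 44.3 in the PIP4K2B line, and 3.93 and 4.10 in the double line, a mean rise of 5.09 log2 (SE 0.28, adjusted p = 2.3e-06). Histone genes are near-identical copies, so reads may have been shared among them and the level of a single copy is uncertain. Of the 33 replication-dependent histone genes tested, the other one called in all 3 lines was H2BC15, which fell by 0.67.

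ANXA10, which encodes an annexin, a calcium-dependent phospholipid-binding protein (chromosome 4, 168092515 to 168187690, plus strand), was at 0.454 CPM in the vector library. The PIP4K2A line had 21.3 and 18 CPM, the PIP4K2B line 37.7 and 39.2, and the double line 3.97 and 3.68, a mean rise of 4.95 log2 (SE 0.45, adjusted p = 4.1e-05). The vector library was far below every knockdown library for both genes, and the 3 lines did not overlap with each other. MAGEB17, a melanoma antigen family gene on the X chromosome (16167481 to 16171464, plus strand), went from 0.314 CPM to between 4.27 and 7.64 CPM, a rise of 4.17 (SE 0.30, adjusted p = 7.2e-06).

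Membrane, junction and vesicle genes were among the other large rises. CLDN1, which encodes the tight junction protein claudin 1, was at 4.89 CPM in the vector library, 32.8 and 28.7 in the PIP4K2A line, 37.1 and 37.2 in the PIP4K2B line, and 16.5 and 13.5 in the double line (2.39 log2, SE 0.15, adjusted p = 4.1e-06). VAMP8, an endosomal SNARE gene, was at 0.804 CPM in the vector library and between 3.62 and 10.1 in the knockdowns (7.97-fold, SE 0.34 on the log2 scale). SYTL1, which encodes a Rab27-binding synaptotagmin-like protein, rose by 1.66 log2 and STRA6, the receptor for retinol-binding protein, by 1.65. Actin-linked genes included LCP1, which encodes the actin-bundling protein plastin 2, at 3.35 CPM in the vector library and 9.74 to 23.3 in the knockdowns (2.14 log2), and FBLIM1, a filamin-binding LIM protein gene, which rose by 1.73.

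The remaining genes among the 15 largest rises were ZBED2, a zinc finger gene, at 2.48 log2, SCEL, which encodes the cornified envelope protein sciellin, at 2.37, and CFAP58, a cilia and flagella gene, at 2.30. They also held FBXO2, an F-box gene of glycoprotein degradation, at 2.05, and the non-coding RNA genes LINC02331 at 2.16 and NECTIN3-AS1 at 1.91. The strand setting of the counting is not given in the sources used here, so reads of NECTIN3-AS1 cannot be told apart from those of an overlapping gene. Over the 15 genes, adjusted p ran from 2.3e-06 to 0.0012.

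**Figure D1:**
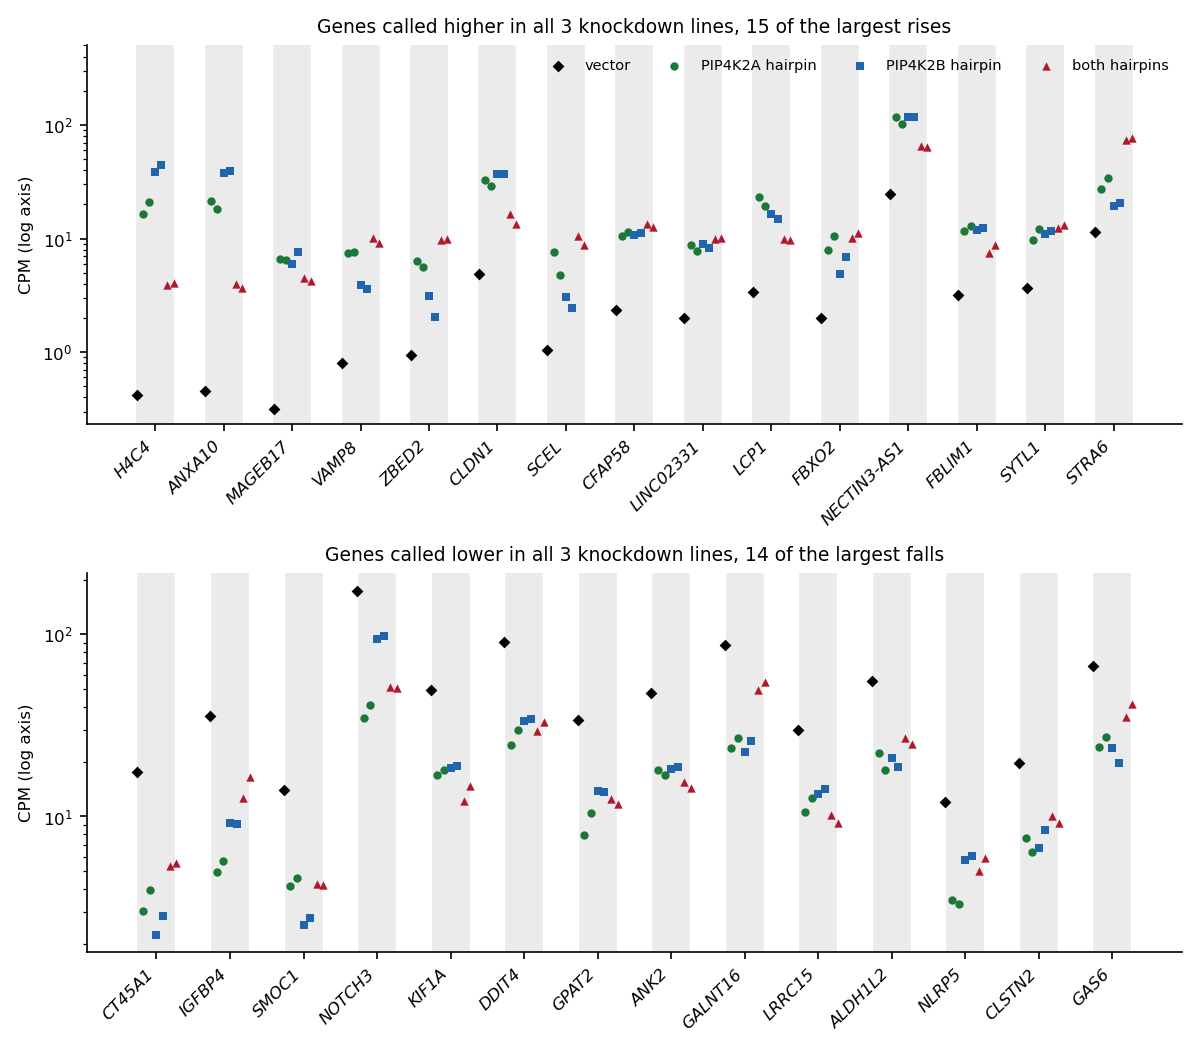
Levels in CPM, on a log axis, of the 15 largest rises (top) and 14 of the 15 largest falls (bottom) among genes called the same way in all 3 lines, with 1 point for each of the 7 untreated libraries. Every knockdown library lies above the vector library in the top panel and below it in the bottom panel; H4C4 goes from 0.419 CPM in the vector library to 44.3 CPM at most.

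The 15 largest falls among shared genes of at least 5 CPM were in genes at 12 to 174 CPM in the vector library. The minimum is a mean over 7 libraries of which 6 are knockdowns, so it keeps a gene that fell only where its vector level was above 5 CPM, while a gene that rose can pass through its knockdown levels alone. Larger fitted falls in genes of lower counts, such as GAGE1 at -4.95 with a mean of 0.43 CPM, were left out by it. IGFBP4, which encodes an insulin-like growth factor binding protein (chromosome 17, 40443461 to 40457731, plus strand), was at 35.5 CPM in the vector library, 4.95 and 5.68 in the PIP4K2A line, 9.26 and 9.15 in the PIP4K2B line, and 12.6 and 16.5 in the double line, a mean change of -2.00 log2 (SE 0.16, adjusted p = 1.3e-05). NOTCH3, a Notch receptor gene (chromosome 19, 15159038 to 15200981, minus strand), was at 174 CPM in the vector library, 34.7 and 40.9 in the PIP4K2A line, 94.0 and 97.8 in the PIP4K2B line, and 51.2 and 50.7 in the double line (-1.62 log2, SE 0.11, adjusted p = 7.1e-06). The vector library was highest for both genes, and the lines again stood apart from each other. CT45A1, a cancer/testis antigen gene of the X chromosome, was at 17.5 CPM in the vector library and at 2.25 to 5.58 in the knockdowns (-2.28 log2, SE 0.15). It has near-identical neighbours, so its level is uncertain in the same way as that of H4C4.

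Several of the other falls were in genes of secreted and cell-surface proteins. SMOC1, a secreted calcium-binding matrix protein gene, was at 13.9 CPM in the vector library and 2.55 to 4.61 in the knockdowns (-1.93 log2). GAS6, which encodes the ligand of the TAM receptor tyrosine kinases, was at 67.2 CPM and 19.6 to 41.6 (-1.28). LRRC15, a leucine-rich membrane protein gene, fell by 1.39 log2 and CLSTN2, which encodes a calsyntenin, by 1.31. Intracellular genes among the falls were the kinesin motor gene KIF1A (fell by 1.61), the ankyrin gene ANK2 (fell by 1.51), the glycosyltransferase gene GALNT16 (fell by 1.48), the acyltransferase gene GPAT2 (fell by 1.57) and NLRP5 (fell by 1.34). DDIT4 and ALDH1L2, also among the 15, are described with the ATF4 genes. Adjusted p over the 15 falls ran from 2.3e-06 to 0.00048.

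The size of the shared changes differed between the lines for part of the genes. A joint test of the 3 lines against each other called 155 of the 482 shared genes, against 14.2% of all genes tested. The 482 were chosen by calls from the same fit and its estimates of spread, so this comparison is a description. The double line had the smallest change of the 3 for 96 of the genes called higher and 107 of those called lower, and the largest for 89 and 68, so the line with both hairpins was not regularly the most changed. Of the 15 largest rises 11 were called in the joint test, and of the 15 largest falls 12. In H4C4, ANXA10, CLDN1, LCP1, NECTIN3-AS1 and FBLIM1 the double line changed least: for ANXA10 the log2 changes were 5.39 in the PIP4K2A line, 6.42 in the PIP4K2B line and 3.04 in the double line (joint adjusted p = 1.1e-05). In ZBED2, SCEL, STRA6 and VAMP8 the double line changed most and the PIP4K2B line least, as in STRA6 with 1.40, 0.84 and 2.71 (joint adjusted p = 1.2e-05). NOTCH3 was -2.24, -0.83 and -1.80 (joint adjusted p = 2.1e-05), and C6orf15 was -1.01, -2.18 and -0.63 (joint adjusted p = 1.6e-05).

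The UV-treated lines were read for the same genes, each against its own vector libraries. ANXA10 was 5.05, 6.08 and 2.72 log2 above the UV-treated vector in the PIP4K2A, PIP4K2B and double lines, H4C4 was 5.26, 6.58 and 3.0, and NOTCH3 was -2.29, -0.51 and -1.62. STRA6 was 1.35, 1.34 and 3.07. In H4C4, ANXA10 and NOTCH3 the 3 lines had the same order as untreated. In LCP1, NECTIN3-AS1 and FBLIM1 the double line was again the least changed, at 1.69, 1.37 and 1.88.

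After UV, most of the shared genes stood on the same side of the vector. The mean of the 3 UV-treated lines was called higher for 10.0% and lower for 9.05% of all genes tested. Of the genes called higher in all 3 untreated lines, 221 of 235 were called higher after UV, and of those called lower, 233 of 247 were called lower. None of the 482 was called in the opposite direction, and 233 and 246 had the same sign. The median change after UV was 0.76 log2 for the first set and -0.68 for the second. All 3 UV-treated lines were called in the same direction, each by itself, for 184 and 150 of the genes. All 15 of the largest rises and 14 of the 15 largest falls were called after UV. H4C4 was at 0.125 and 0.126 CPM in the UV-treated vector libraries and at 0.96 to 12.1 in the knockdowns (4.95 log2, adjusted p = 2.6e-07), and IGFBP4 was at 46.9 and 46.6 CPM in the vector and 4.44 to 19.0 in the knockdowns (-2.01 log2, adjusted p = 6.7e-07). In neither gene did the UV-treated knockdown libraries overlap with the vector libraries.

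**Figure D2:**
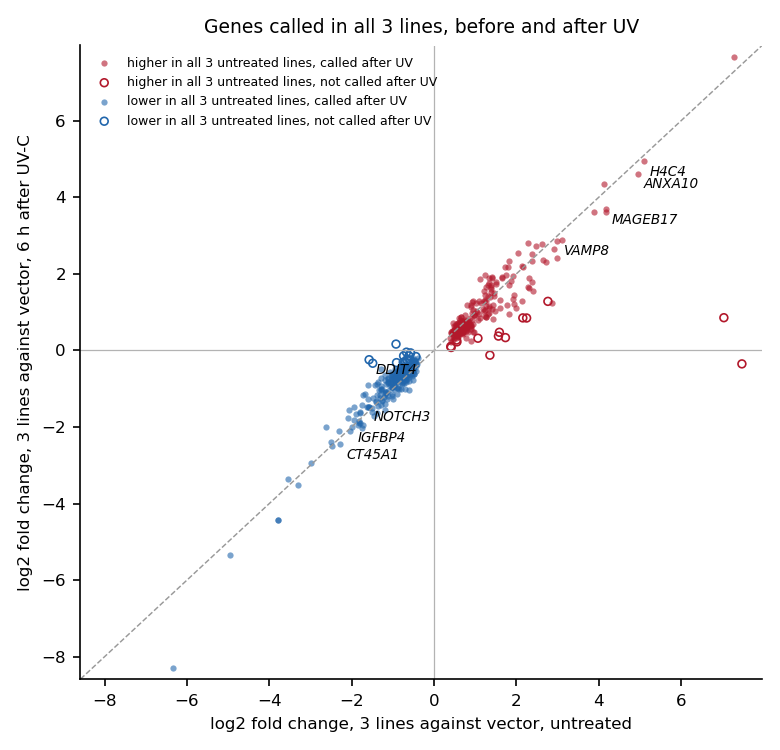
Mean log2 fold change of the 3 knockdown lines against vector for the 482 shared genes, untreated (horizontal axis) and 6 h after UV-C (vertical axis), with filled points for the 454 genes called after UV and open points for the rest. Most points lie near the dashed line of equal change; DDIT4 lies at -1.58 untreated and -0.24 after UV.

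The test of the difference between the UV-treated and untreated effects called 1 gene, 0.00443% of those tested, while 1227 genes had an unadjusted p under 0.05. That gene was DDIT4, the one of the 15 largest falls that was not called after UV. DESeq2 called 25 genes for the same difference.

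ATF4 and unfolded protein response genes were the list with the most members called lower. ATF4 is a transcription factor whose production rises under amino acid shortage or stress of the endoplasmic reticulum. It turns on genes of amino acid synthesis and transport. Of 28 members tested, 7 were called lower in all 3 untreated lines and 0 higher, against 1.09% and 1.04% of all genes. The median of the list was -0.43 log2, against 0.00 for all genes, and it was -0.08 after UV. The mean of the 3 lines was called lower for 11 members untreated and for 9 after UV, and higher for 0 and 3. Over all genes the mean was called lower for 4.13% and 9.05%, and higher for 3.84% and 10.0%. The count of 7 was 3 without replicate 1 of the untreated double line, 4 without replicate 2 of the untreated PIP4K2B line, 11 without either UV-treated PIP4K2A library, and 4 with ribosomal protein gene scaling.

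DDIT4, also known as REDD1, encodes an inhibitor of mTORC1 (chromosome 10, 72273920 to 72276036, plus strand). It was at 91.0 CPM in the vector library, 24.7 and 29.9 in the PIP4K2A line, 33.6 and 34.3 in the PIP4K2B line, and 29.5 and 33.2 in the double line, a change of -1.58 log2 (SE 0.10, adjusted p = 5.4e-06). All 6 knockdown libraries lay close together and far below the vector library. After UV the vector libraries were at 41.9 and 43.5 CPM and the knockdowns at 32.3 to 37.8 (-0.24 log2, adjusted p = 0.074), so the vector level was the one that differed most between the treatments.

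ALDH1L2, a mitochondrial folate enzyme gene, was at 55.2 CPM in the vector library and at 17.9 to 27.0 in the knockdowns (-1.35 log2, SE 0.10, adjusted p = 9.9e-06), and it was as far below the vector after UV (-1.46). PCK2, the mitochondrial phosphoenolpyruvate carboxykinase gene, was at 59.6 CPM in the vector library, and 24.9 and 29.6, 30.2 and 28.6, and 23 and 23 in the PIP4K2A, PIP4K2B and double lines (-1.18 log2, SE 0.10, adjusted p = 1.7e-05). ASNS, which encodes asparagine synthetase, was at 179 CPM in the vector library, 111 and 96.4 in the PIP4K2A line, 135 and 134 in the PIP4K2B line, and 78.6 and 69.7 in the double line (-0.83 log2, SE 0.08, adjusted p = 9.6e-05). For ASNS the 3 lines did not overlap, and the double line was lowest. ASNS lies in the stretch from 90 to 100 Mb of chromosome 7, described below. Genes of at least 5 CPM there had medians of 0.47, 0.82 and 0.14 in the PIP4K2A, PIP4K2B and double lines. The part of that stretch in the order of the lines was not tested. PHGDH, the first enzyme of serine synthesis, changed by -0.77, the lipoprotein receptor gene VLDLR by -0.77 and HERPUD1, a gene of endoplasmic reticulum protein degradation, by -0.57. After UV, PCK2 (-0.64), ASNS (-0.67), PHGDH (-0.51) and VLDLR (-0.59) were called lower, and HERPUD1 was not (-0.07, adjusted p = 0.69). ATF4 itself was at 426 CPM in the vector library and 298 to 348 in the knockdowns, with a mean change of -0.42 (adjusted p = 0.0077) but no call in the PIP4K2B line alone, and it was at -0.05 after UV. With ribosomal protein gene scaling ATF4 was at -0.17 (adjusted p = 0.35), VLDLR at -0.52 (adjusted p = 0.067) and HERPUD1 at -0.32 (adjusted p = 0.095), with no call. ATF4 and the last 3 members named before it were picked for the text after their values were seen.

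The sequences before the start sites of these genes were searched for the element that ATF4 is known to bind with its CEBP partners, and 2 of them are shown because they hold it. The letters TGATGNAA were searched on both strands in the 250 bases before each gene's start in RefSeq promoters on GRCh38.p14, and 240 of the 13525 promoters matched to tested genes held them (1.774%). Of the 7 ATF4 genes called lower, 6 had a promoter in the table, and 2 of these held the letters, ASNS and HERPUD1. Promoters were found for under 80% of the 482 shared genes, so counts over them cover only a part. Among those with a promoter, 2 of 166 genes called higher and 5 of 177 called lower held the letters. A match is a stretch of letters and not a binding site shown by these data. The stretches are shown 5′ to 3′ on the strand of the gene, with the matching letters in capitals.
ASNS, chr7:97872437-97872496, minus strand: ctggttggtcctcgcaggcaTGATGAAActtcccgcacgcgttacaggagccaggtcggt
HERPUD1, chr16:56931946-56932005, plus strand, where the letters lie on the opposite strand: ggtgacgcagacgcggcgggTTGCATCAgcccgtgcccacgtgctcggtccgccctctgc
In ASNS the match begins 68 bases before the start, and in HERPUD1 176 bases before it.

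Targets of p53, the transcription factor that is induced by DNA damage and that U2OS cells have in working form, were the list with the most members called higher. Of 33 tested, 6 were called higher in all 3 untreated lines and 0 lower, with a list median of 0.31 log2 untreated and 0.39 after UV. Of all genes, 1.04% were called higher and 1.09% lower in all 3 lines. The mean of the 3 lines was called higher for 14 members and lower for 0 untreated, and higher for 20 and lower for 2 after UV. Over all genes the mean was called higher for 3.84% and lower for 4.13% untreated, and for 10.0% and 9.05% after UV. ZMAT3, which encodes an RNA-binding zinc finger protein, was at 68.8 CPM in the vector library, 161 and 139 in the PIP4K2A line, 155 and 143 in the PIP4K2B line, and 131 and 127 in the double line (1.04 log2, SE 0.12, adjusted p = 0.00024). The vector library was below all knockdown libraries, and the lines overlapped in part. CD82, a tetraspanin gene, was at 5.03 CPM and 9.19 to 13.9 (1.12 log2, SE 0.22, adjusted p = 0.0072), and after UV it was 1.86 higher.

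TP53INP1, a stress-response gene, was at 23.4 CPM in the vector library and 31.9 to 48.4 in the knockdowns (0.71 log2), and SESN1, which encodes a sestrin that restrains mTORC1, was at 12.8 CPM and 18.2 to 22.9 (0.67 log2). TIGAR, a regulator of glycolysis, rose by 0.67 and FBXO22, an F-box gene, by 0.64. All 6 were also called higher after UV, where SESN1 was at 5.19 and 4.36 CPM in the vector libraries and 6.02 to 8.16 in the knockdowns. CDKN1A, the p21 cell cycle inhibitor, was at 203 CPM in the vector library and 228 to 299 in the knockdowns (0.31 log2, adjusted p = 0.087), with a call in the double line alone. MDM2, the ubiquitin ligase of p53, was at 152 CPM and 236 to 347 (0.88 log2, adjusted p = 0.012), with no call in the double line. TIGAR, FBXO22, CDKN1A and MDM2 were picked after their values were seen. The count of 6 was 2 without either untreated double library, 3 without replicate 1 of the untreated PIP4K2A or PIP4K2B line or without any UV-treated PIP4K2B or double library, and 12 without either UV-treated PIP4K2A library.

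**Figure D3:**
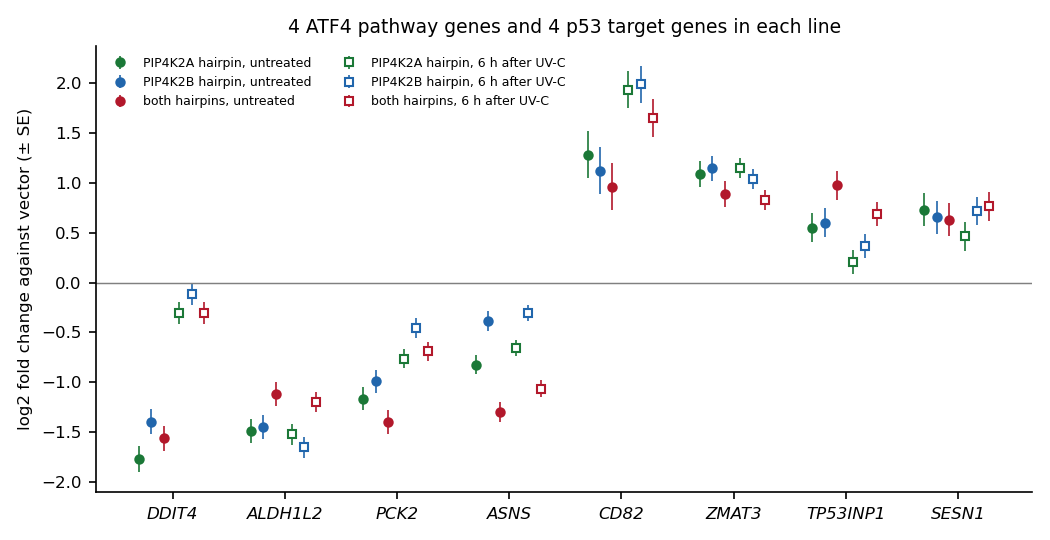
Log2 fold change against vector, with SE bars from the fit, of 4 ATF4 genes and 4 p53 target genes in each of the 3 lines, untreated (filled) and 6 h after UV-C (open). The ATF4 genes are below 0 and the p53 targets above 0 in every line; DDIT4 is near 0 after UV.

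Genes of lipid synthesis and of the response to low oxygen had members called lower and none called higher. Over all genes, 1.09% were called lower and 1.04% higher in all 3 lines. Of 31 cholesterol synthesis and SREBP target genes, 3 were called lower in all 3 lines, and the list median was -0.32 untreated and -0.26 after UV. SCD, the stearoyl-CoA desaturase gene, was at 1015 CPM in the vector library, 586 and 573 in the PIP4K2A line, 508 and 479 in the PIP4K2B line, and 754 and 766 in the double line (-0.77 log2, SE 0.07, adjusted p = 6.6e-05). LSS, which encodes lanosterol synthase, was at 165 CPM and 79.6 to 120 (-0.86), and ACACA, the acetyl-CoA carboxylase gene, at 248 CPM and 175 to 205 (-0.42, or -0.17 with ribosomal protein gene scaling). LSS lies in a stretch of chromosome 21 in which most genes were lower, described below. Of 36 hypoxia and glycolysis genes, 3 were called lower (median -0.19), namely ALDOC, a brain-type aldolase gene, at 9.61 CPM and 2.29 to 6.20 (-1.41), CA12, a carbonic anhydrase gene, at 32.8 CPM and 13.1 to 21.5 (-1.0), and VEGFA, the angiogenic growth factor gene, at 62.6 CPM and 42.1 to 50.1 (-0.44). VEGFA was not called after UV (-0.16, adjusted p = 0.14), nor untreated with ribosomal protein gene scaling (-0.19, adjusted p = 0.25).

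In lysosome and autophagy genes, a process the PIP4K family is known for, 2 of 40 were called higher and 1 lower, with a median of 0.06. The shares over all genes were 1.04% and 1.09%. MITF, a transcription factor of the family that controls lysosome genes, was at 11 CPM in the vector library, 25.5 and 24.2 in the PIP4K2A line, 46.4 and 42.1 in the PIP4K2B line, and 28.5 and 27.3 in the double line (1.49 log2, SE 0.12, adjusted p = 1.4e-05). GABARAPL1, which encodes an ATG8 protein of autophagosomes, was at 13.4 CPM and 19.2 to 27.0 (0.76). NPC1, the lysosomal cholesterol exporter gene, was at 96.7 CPM and 57.7 to 69.7 (-0.66, or -0.41 and adjusted p = 0.057 with ribosomal protein gene scaling). All 3 were called the same way after UV, at 1.02, 0.91 and -0.49. Of 48 other phosphoinositide kinases and phosphatases and 21 FOXO target and insulin signalling genes, 0 were called in all 3 lines in either direction. In lists of these sizes that is near the share over all genes.

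Adhesion, matrix and receptor genes moved in both directions. The counts below stand beside 1.04% of all genes called higher and 1.09% called lower in all 3 lines. Of 18 integrin genes, ITGB4 was called higher (9.85 CPM in the vector library and 16.3 to 38.4 in the knockdowns, 1.41 log2), and ITGA11 (8.60 and 1.85 to 5.02, -1.60), ITGB3 (23 and 6.86 to 14.7, -1.18) and ITGB1 (1295 and 706 to 986, -0.59) lower. With ribosomal protein gene scaling ITGB1 was at -0.34 and not called (adjusted p = 0.13). ITGB4 pairs in hemidesmosomes of epithelia, ITGA11 is a collagen receptor chain, and ITGB1 is the common beta chain. Of 38 extracellular matrix genes, COL13A1 was called higher (1.99 and 3.17 to 8.53 CPM, 1.43 log2) and the collagen VI genes COL6A3 (365 and 168 to 281 CPM, -0.83) and COL6A2 (240 and 125 to 161 CPM, -0.74) lower. Of 27 matrix proteases and inhibitors, the stromelysin gene MMP3 rose by 1.42 log2, and the gelatinase gene MMP2 and the protease inhibitor gene SERPINE2 fell by 0.91 and 0.74. Of 29 receptor tyrosine kinase genes, 2 were called lower and 0 higher, the collagen receptor gene DDR2 (130 CPM and 45.9 to 77.7, -1.18) and the ephrin receptor gene EPHB2 (148 CPM and 85.9 to 104, -0.64). In the Notch list of 22 genes, LFNG, a glycosyltransferase that modifies Notch receptors, fell by 1.19 beside NOTCH3, and the coactivator gene MAML1 rose by 0.51.

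Other lists had few members called, as did all genes tested, at 1.04% higher and 1.09% lower in all 3 lines. In G1/S and DNA replication genes, CDK6, a G1 cyclin-dependent kinase gene, was at 440 CPM in the vector library, 971 and 789 in the PIP4K2A line, 1198 and 1163 in the PIP4K2B line, and 909 and 780 in the double line (1.11 log2, SE 0.15, adjusted p = 0.0009). MCM6, a subunit of the replicative helicase, and E2F2 fell by 0.57 and 0.52, or by 0.32 and 0.28 with no call (adjusted p = 0.098 and 0.18) with ribosomal protein gene scaling. Among nucleotide excision repair genes, which remove UV damage, CCNH, a TFIIH subunit, and RAD23B, a partner of the damage sensor XPC, rose by 0.89 and 0.47. Among immediate early genes, the nuclear receptor gene NR4A3 was at 0.699 CPM and 1.47 to 2.51 (1.36 log2) and the phosphatase gene DUSP1 at 32.1 CPM and 49.9 to 60.9 (0.77). NR4A3 was not called after UV (-0.12, adjusted p = 0.68). CCL2, a chemokine gene, was the one NF-kB and cytokine gene called (0.79), HNRNPAB the one hnRNP gene (0.65) and AQR the one core spliceosome gene (0.58). Of 26 interferon-stimulated genes, 33 G2/M genes, 64 oxidative phosphorylation genes, 79 cytosolic ribosomal protein genes, 14 small RNA pathway genes, 33 TGF-beta and BMP genes, 32 Wnt genes and 24 YAP/TAZ targets, 0 were called in all 3 lines. With so small a share called over all genes, a count of 0 in 1 list is no result about that list. The ribosomal protein list had a median of -0.24, with 6 members called lower in the mean of the 3 lines and 0 higher.

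**Figure D4:**
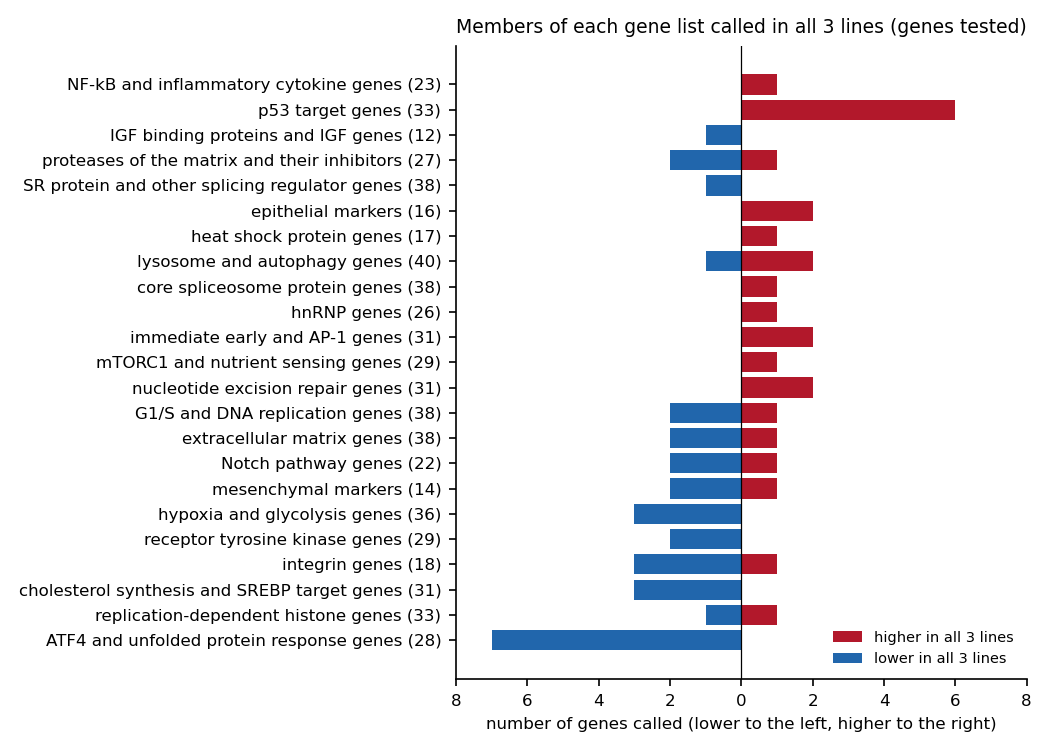
Number of members of each gene list called higher (right) or lower (left) in all 3 untreated lines, for the lists with at least 1 call, ordered by the median change of the list, with the number of genes tested in parentheses. The longest bars are 7 ATF4 genes called lower and 6 p53 target genes called higher.

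The marker genes of other cell types were read in the same libraries. Epithelial markers summed to 506 CPM in the vector library and 640 to 796 in the 6 knockdown libraries. In that list CLDN1 and KRT8, a keratin gene at 118 CPM in the vector library and 229 to 336 in the knockdowns (1.25 log2), were called higher in all 3 lines. The mean of the 3 lines called 2 other members lower, the claudin gene CLDN4 (-0.73) and the keratin gene KRT14 (-0.84), which were named after their values were seen, and the list median was 0.06. Of the 22 markers, 10, with KRT19, GRHL2 and OVOL1 among them, were under 1 CPM in all 7 libraries. Mesenchymal markers summed to 4341 CPM in the vector library and 3330 to 3906 in the knockdowns, with a list median of -0.17 log2. The actin-binding gene TAGLN rose by 0.95 log2, the N-cadherin gene CDH2 fell by 0.63 and the transcription factor gene ZEB1 by 0.60, or by 0.35 with no call (adjusted p = 0.099) with ribosomal protein gene scaling. TWIST1 was at 0 in all 7. Osteoblast markers summed to 3368 CPM and 1431 to 2789, with 0 members called in all 3 lines, and the defining genes SP7, BGLAP and IBSP were under 1 CPM. The osteoblast list median was -0.08 log2, with 1 member called higher and 2 lower in the mean of the 3 lines. A sum of CPM weighs the most abundant members most. Blood cell markers summed to 2.24 CPM in the vector library and 2.34 to 3.83 in the knockdowns, with CD3E at 0. Endothelial markers summed to 27.3 CPM and 19.0 to 30.6. Neuronal markers summed to 237 CPM and 199 to 237. The part of any change in cell composition in these results was not tested, and in bulk RNA fewer cells of a kind and less RNA per cell cannot be told apart.

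Shared calls gathered on certain stretches of chromosomes. The genome was divided into 10 Mb windows after the calls had been seen, and the median log2 change of genes with at least 5 CPM was taken in the 259 windows that held at least 15 of them. In 17 windows the median was beyond 0.25 in the same direction in all 3 untreated lines, 11 higher and 6 lower. All 17 medians had the same sign after UV. With ribosomal protein gene scaling, 88 windows were beyond 0.25 upward and 0 downward. The 11 higher windows held 59 of the 235 genes called higher, or 7.76% of the 760 genes tested there, against 0.829% of genes outside the 17 windows. The 6 lower windows held 45 of the 247 called lower, or 7.43% of 606, against 0.947%. These windows were chosen by the same values, so the shares are a description. A window that missed the cut in 1 line could still be shifted in the others. The stretch from 90 to 100 Mb of chromosome 7, which holds CDK6 and ASNS, had medians of 0.47, 0.82 and 0.14 in the PIP4K2A, PIP4K2B and double lines. Of its 53 genes, 48 were above 0.

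The block with the most shared calls spanned 30 to 60 Mb of chromosome 15. Of its 153 genes of at least 5 CPM, 140 were above 0, with medians of 0.34, 0.42 and 0.51 log2 in the PIP4K2A, PIP4K2B and double lines and 0.44 for the mean after UV, and it held 25 of the genes called higher. Among them were AQR and EIF2AK4, which encodes the amino acid sensor kinase GCN2 (107 CPM in the vector library and 143 to 171 in the knockdowns, 0.54 log2). On chromosome 5, the stretches from 70 to 100 Mb and from 160 to 180 Mb held 9 and 16 of the genes called higher, CCNH in the first and DUSP1, MAML1 and HNRNPAB in the second. Lower blocks were the first 10 Mb of chromosome 7 (66 genes, median -0.42, 16 calls, LFNG among them), 10 to 40 Mb of chromosome 16 (179 genes, median -0.32, 14 calls), 40 to 50 Mb of chromosome 21 (45 genes, median -0.46, 11 calls) and 30 to 40 Mb of chromosome 10 (18 genes, all 18 below 0, median -0.32). LSS, COL6A2 and CBS, the cystathionine synthase gene (60.6 CPM and 20.7 to 37.6, -1.12 log2), lie in the chromosome 21 block, and ITGB1 and ZEB1 in that of chromosome 10. U2OS has a rearranged genome with unequal copies of many chromosome segments. DNA copy number was not measured here, and its part in these blocks was not tested. None of the 15 largest rises or falls, and none of the ATF4 or p53 genes called in all 3 lines, lie in the 17 windows. Some lie in windows that missed the cut in the double line. ANXA10 lies in 160 to 170 Mb of chromosome 4, where all 16 genes of at least 5 CPM were above 0. The medians there were 0.35, 0.58 and 0.11 in the PIP4K2A, PIP4K2B and double lines. ASNS lies in the stretch of chromosome 7 that holds CDK6. The part of these stretches in the changes of both genes was not tested. EIF2AK4 and CBS were picked after their values were seen.

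**Figure D5:**
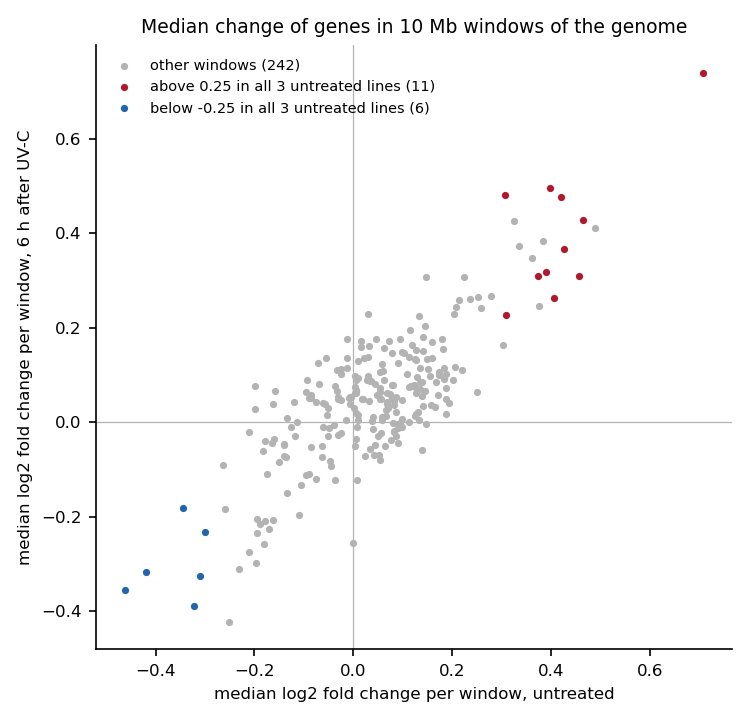
Median log2 fold change of the mean of the 3 lines per 10 Mb window, untreated (horizontal axis) and 6 h after UV-C (vertical axis), with 1 point for each of the 259 windows and colour for the 11 windows above 0.25 and the 6 below -0.25 in all 3 untreated lines. The coloured windows keep their sign after UV.

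Base composition moved with the untreated comparison as well. When genes were ranked by G and C content and split into 5 groups of equal size, the median change of the mean of the 3 lines was 0.15 log2 in the group with the lowest content, 0.07, 0.00 and -0.09 in the next ones, and -0.18 in the highest. After UV all 5 medians lay between -0.02 and 0.00. The genes called higher numbered 57 in the lowest group and 24 in the highest, and those called lower 16 and 76. Content was known for 476 of the 482 shared genes. The part of base composition in single results was not tested.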

How the data were processed

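The authors deposited RSEM expected counts per gene and library, without normalization, per the file headers. STAR, SAMtools, RSEM and the build GRCh38 appear in the submitters' processing notes; versions, annotation and strandedness are not stated there. Per the labels' protocols, ribosomal RNA was depleted and libraries were directional.

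Rounded counts of 15 libraries (all but untreated vector replicate 1; 28.0 to 39.9 M each) were fitted with edgeR 4.0.16 (R 4.3.3), with 1 term for each of 8 groups, TMM scaling, filterByExpr at a minimum count of 10, 7 residual degrees of freedom and a biological coefficient of variation of 11.3%. A call is a Benjamini-Hochberg adjusted p under 0.05 over all genes. An SE is the absolute log2 change divided by the square root of F. The scripts were tested on simulated data. Positions and gene types come from GENCODE release 29.

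Genes were named by a rule: the 3 PIP4K2 genes, then the 15 largest rises and falls among shared genes of at least 5 CPM that were neither clones nor pseudogenes, the 5 largest of each after UV, up to 4 called members of each of 41 lists (or the 2 most expressed where none was called), and the 6 shared genes with the smallest p among lines. The text gives some of them, and a few items are not reported here. Members and lists were chosen with earlier results of these data known.

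Alternatives were RLE and ribosomal protein gene scaling, no filter, CPM above 1 in 2 libraries, DESeq2 1.42.0, the 7 untreated libraries, all 16 libraries, vector replicate 1 as control, the replicate number as a block, the 6 knockdown libraries as 1 group, stricter thresholds, and leaving out 1 library at a time. The 1 untreated vector library was never left out, because no untreated control would remain. Leaving out libraries therefore does not test what rests on it.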

Additional observations from a re-analysis of the deposited data

Results flagged for a closer look

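DDIT4 was the gene whose knockdown effect differed between treatments by a test of the difference itself. The mean effect of the 3 lines was 1.33 log2 higher after UV than untreated (SE 0.14, adjusted p = 0.013, edgeR's quasi-likelihood test with Benjamini-Hochberg adjustment over 22597 genes). All 6 untreated knockdown libraries lay below the vector library, and so did all 6 UV-treated ones below the 2 UV-treated vector libraries, by less. The untreated side rests on 1 vector library, in which DDIT4 was at 91.0 CPM. The difference was not called for DDIT4, nor for any other gene, without replicate 1 or replicate 2 of the UV-treated vector or without replicate 1 of the untreated PIP4K2B line.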

How the results depend on the processing

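Of 92 named genes, all kept the direction and call of the mean of the 3 lines with RLE scaling, no filter on low counts, CPM above 1 in 2 libraries, the 7 untreated libraries alone and the replicate block. PIP4K2A and PIP4K2B were read here in the line of their own hairpin and not in the mean. With DESeq2, CDKN1A was newly called. With ribosomal protein gene scaling 12 were no longer called, CDKN1A was newly called and 0 turned. Leaving out 1 library, never the untreated vector library, kept 1286 of 1288 of these calls, and CDKN1A was newly called without either UV-treated PIP4K2A library. Calls in all 3 lines were less stable: of the 482, 338 remained with the replicate block and 213 without replicate 1 of the untreated double line.

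Genes called in all 3 lines were 469 with RLE scaling, 684 without the filter, 571 with the CPM filter, 545 with DESeq2, 526 with the untreated libraries alone, 128 at an absolute log2 change of at least 1 and 151 at adjusted p under 0.01. The mean contrast called 459 at that change and 389 with the 6 knockdown libraries as 1 group. Leaving out 1 library gave 215 to 1149 shared genes, 1281 to 3570 for the mean, 780 to 3544, 1099 to 4125 and 518 to 2931 for the PIP4K2A, PIP4K2B and double lines, 1768 to 6708 for the mean after UV with 2218 to 6771, 2056 to 6349 and 1465 to 5389 for its lines, 1621 to 5193 for differences among lines and 1340 to 4857 for double against single lines. The difference between treatments called 3 genes with RLE, 2 with ribosomal protein scaling, 151 without the filter, 2 with the CPM filter, 25 with DESeq2 and 0 to 54 when 1 library was left out, with 0 without either vector UV library or replicate 1 of untreated PIP4K2B. Called p53 targets numbered 10 without the filter and with the untreated libraries alone, 9 with ribosomal protein gene scaling and DESeq2, 8 with the CPM filter and 2 to 12 when 1 library was left out. Called ATF4 genes numbered 4 with ribosomal protein gene scaling and 3 to 11 when 1 library was left out. The joint test of lines was not run with DESeq2. The causes were not tested.

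With the replicate block 353 shared genes, 1409 for the mean, 1383, 1915 and 1064 for the PIP4K2A, PIP4K2B and double lines, 2 p53 targets and 6 ATF4 genes were called. The deviations of same-numbered libraries were not correlated in the median, with some pairs above and some below 0.00 (21 pairs of 7 groups, r -0.12 to 0.19, median 0.00). The untreated vector has no replicate pair in the fit and is not among these groups. Whether some same-numbered libraries were handled together was not tested.

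With all 16 libraries the mean called 4951, the PIP4K2A, PIP4K2B and double lines 39, 157 and 45, shared genes 14, after UV 106 for the mean and 60, 127 and 64 for the lines, the difference between treatments 0, differences among lines 74, double against single lines 83, and p53 and ATF4 genes 0 and 0. Turned mean changes were ASNS 0.079, ACACA 0.45, NPC1 0.19, NR4A3 -2.37, COL13A1 -1.14, COL6A2 0.17, MMP2 0.021, ITGB1 0.20, EPHB2 0.023, MCM6 0.29, E2F2 0.26, CDH2 0.082, ATF4 0.47, CARS1 0.24, GARS1 0.034, WARS1 0.47, PHGDH 0.084, FBXO22 -0.019. With vector replicate 1 as the control the mean called 22268, the lines 21857, 21948 and 21962, shared genes 20676, the difference between treatments 17395, p53 targets 31 higher and 1 lower, and ATF4 genes 22 higher and 2 lower. PIP4K2A turned to 1.57 in the PIP4K2A line. Turned mean changes were ZBED2 -0.21, IGFBP4 0.29, NOTCH3 6.08, KIF1A 1.23, DDIT4 0.83, GPAT2 2.77, GALNT16 0.97, LRRC15 0.41, ALDH1L2 0.53, NLRP5 2.51, GAS6 0.99, PCK2 2.86, ASNS 3.97, LSS 2.66, SCD 2.21, ACACA 3.65, ALDOC 3.69, VEGFA 0.66, NPC1 3.39, NR4A3 -2.95, LFNG 4.07, COL13A1 -1.68, COL6A3 2.31, COL6A2 3.92, MMP3 -0.38, MMP2 4.21, SERPINE2 1.59, ITGB3 0.061, ITGB1 2.62, DDR2 0.11, EPHB2 1.84, MCM6 3.42, E2F2 2.89, H2BC15 1.83, CDH2 2.11, ZEB1 0.20, C6orf15 1.78, CBS 2.85, ATF4 3.83, CARS1 3.55, GARS1 1.22, WARS1 3.64, PHGDH 3.11, HERPUD1 1.26.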

Other observations

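The cytosolic aminoacyl-tRNA synthetases, which charge tRNAs with amino acids and many of which are known ATF4 targets, were read as a complete family after the ATF4 calls had been seen, so their counts are a description. Of 20 genes tested, 17 had a mean change below 0, 8 were called lower and 1 higher in the mean of the 3 untreated lines, and 3 were called lower in all 3 lines. These were CARS1 (104 CPM in the vector library and 65.8 to 73.3 in the knockdowns, -0.62 log2), GARS1 (504 CPM and 353 to 408, -0.43) and WARS1 (113 CPM and 84.1 to 90.6, -0.38). The family median was -0.21 log2 untreated and -0.03 after UV. Over all genes the untreated mean was called lower for 4.13% and higher for 3.84%, and 1.09% were called lower in all 3 lines. With ribosomal protein gene scaling GARS1 and WARS1 were at -0.18 and -0.14 and were not called.

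The EGF family ligands were also read after calls had been seen, so their counts are a description. They had 2 of 10 genes called higher in all 3 untreated lines, against 1.04% of all genes. The family median was 0.24 log2 untreated and 0.04 after UV, and 3 genes had an untreated mean change below 0. The mean was called higher for 3 and lower for 0 untreated, and for 4 and 1 after UV. Over all genes these shares were 3.84% and 4.13% untreated, and 10.0% and 9.05% after UV. AREG, which encodes amphiregulin, was at 0.559 CPM in the vector library and between 3.26 and 5.13 in all 6 knockdown libraries (2.86 log2, SE 0.35, adjusted p = 0.00039), with the 3 lines at 2.71, 2.95 and 2.92. HBEGF was at 15.8 CPM and 27.5 to 30.8 (0.89 log2, SE 0.10, adjusted p = 0.00032). After UV, AREG was at 2.58 and 3.03 CPM in the vector libraries and 5.65 to 8.08 in the knockdowns (1.23 log2), and HBEGF at 41.7 and 40.9 and 44.6 to 52.8 (0.26 log2). The knockdown libraries did not overlap with the vector libraries in either treatment for either gene.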
